A study of Homo sapiens with 4 samples.

Results

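The regions described here are H3K14ac peaks that were called in NIT2-knockdown cells, had no counterpart in the control list and lay far from every protein-coding gene. They were the rows of the shNIT2 peak list that were narrower than 2500 bp, that no row of the shNT list overlapped by even 1 bp, and whose midpoint lay outside all protein-coding gene spans and more than 50 kb from the nearest of them. Members were thus selected on the calls in both lists and on peak width, so their absence from the shNT list is no finding. The rule kept 3056 of the 28187 shNIT2 regions, or 10.8%, covering 2.07 Mb. The cells were MKN45, an established human gastric cancer line. The shNIT2 cells carried a short hairpin RNA against NIT2, an omega-amidase that works in glutamine metabolism, and the shNT cells carried a control hairpin. Each kind of cell gave 1 H3K14ac library and 1 input library, and 1 peak list was available for each H3K14ac library. With 1 library per condition there was no replicate check and no test across samples, and all intervals below are exact 95% binomial intervals that cover counting error only. They treat regions as independent, although most regions lay in clusters.

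Acetylation of lysine 14 on histone H3 is laid down by acetyltransferases such as HBO1, MOZ and GCN5 and is found at active promoters and at distal regulatory elements. Distal elements can act on genes over long distances, may skip the nearest gene, and often lie in or beside genes for long noncoding RNAs (lncRNAs). In epithelial tumours, groups of such elements in gene-poor intervals are known around lineage factors and growth regulators, MYC and KLF5 among them.

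The sequences that bear on these regions are those of noncoding genes that start inside them. A promoter window ran from 250 bases before to 50 after the annotated start (RefSeq, GRCh38.p14). Such windows of noncoding genes lay wholly inside a region in 26 cases. Shown are those in the 5 strongest such regions for which a sequence was used. Capitals mark the GC box (GGGCGG) and the TATA box (TATAAA) on either strand, chosen after seeing that they differed most between marked and unmarked noncoding promoters. Overlapping GC boxes run together.
LINC02352: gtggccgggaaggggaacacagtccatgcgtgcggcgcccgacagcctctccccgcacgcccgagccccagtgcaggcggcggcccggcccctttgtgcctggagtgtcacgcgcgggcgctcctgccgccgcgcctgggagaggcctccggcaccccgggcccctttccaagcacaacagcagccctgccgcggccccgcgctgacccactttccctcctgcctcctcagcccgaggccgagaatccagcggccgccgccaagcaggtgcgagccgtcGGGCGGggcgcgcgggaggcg
DLEU2: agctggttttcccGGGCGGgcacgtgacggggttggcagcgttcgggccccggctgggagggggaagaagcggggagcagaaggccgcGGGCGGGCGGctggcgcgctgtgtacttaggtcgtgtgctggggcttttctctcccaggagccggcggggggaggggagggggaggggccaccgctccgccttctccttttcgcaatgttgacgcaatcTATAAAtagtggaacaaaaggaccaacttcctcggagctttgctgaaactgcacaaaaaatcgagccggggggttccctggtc
LOC105376352: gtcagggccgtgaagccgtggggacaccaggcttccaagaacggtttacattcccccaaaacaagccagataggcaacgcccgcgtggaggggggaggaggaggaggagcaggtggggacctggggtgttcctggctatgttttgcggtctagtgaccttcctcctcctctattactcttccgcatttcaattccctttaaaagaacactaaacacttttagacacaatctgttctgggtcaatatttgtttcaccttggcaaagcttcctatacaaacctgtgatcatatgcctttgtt
NIHCOLE: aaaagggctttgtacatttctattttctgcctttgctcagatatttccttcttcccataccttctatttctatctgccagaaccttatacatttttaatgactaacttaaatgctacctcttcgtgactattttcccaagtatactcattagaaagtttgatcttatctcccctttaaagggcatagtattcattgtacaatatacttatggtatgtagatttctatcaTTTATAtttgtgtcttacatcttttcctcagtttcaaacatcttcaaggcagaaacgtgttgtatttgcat
LOC105370869: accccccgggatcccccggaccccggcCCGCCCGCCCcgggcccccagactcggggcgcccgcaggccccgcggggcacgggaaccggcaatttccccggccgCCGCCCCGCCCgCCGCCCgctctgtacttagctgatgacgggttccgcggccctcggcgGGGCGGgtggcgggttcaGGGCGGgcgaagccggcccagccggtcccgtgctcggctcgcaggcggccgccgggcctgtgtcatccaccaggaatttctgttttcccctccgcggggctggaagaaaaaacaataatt
The LINC02352 window (chr15:31215771-31216070, plus strand) has 37 CG dinucleotides and 1 GC box. The DLEU2 window (chr13:50125492-50125791, minus strand) has 24 CG dinucleotides, 3 GC boxes and 1 TATA box. The LOC105370869 window (chr15:66842420-66842719, minus strand) is also rich in CG, with 39, and has 7 GC boxes. LOC105376352 (chr10:2986395-2986694, minus strand) and NIHCOLE (chr5:104080648-104080947, plus strand) are poorer, with 8 and 2 CG dinucleotides, no GC box and, in NIHCOLE alone of the pair, 1 TATA box. The regions around the windows, in the order printed, had an authors' fold of 19.3, 11.5, 8.91, 8.05 and 7.22. The fold is the fragment pileup at the summit over the background, with 1 added to each.

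Some regions lay beside microRNA genes, whose short products guide the silencing of messenger RNAs. Each mature sequence below shares a seed with another one shown. They are a selection, and MIR1204, which a region of 13.0-fold overlapped, is not among them. Capitals mark the seed, bases 2 to 8, which pairs with targets.
hsa-let-7a-5p: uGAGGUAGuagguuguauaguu
hsa-let-7f-5p: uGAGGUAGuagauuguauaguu
hsa-let-7d-5p: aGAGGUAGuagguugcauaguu
hsa-miR-4458: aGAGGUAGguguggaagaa
hsa-miR-30a-5p: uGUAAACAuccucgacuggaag
hsa-miR-30c-5p: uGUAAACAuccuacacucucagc
The first 4 share the seed GAGGUAG of the let-7 family, which restrains proliferation genes. The other 2 share the seed GUAAACA of the miR-30 family. The let-7 genes lie in a host lncRNA whose start is marked, and the others lie within 5 kb of a region. Their values follow with the noncoding genes.

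Overlap with the control list decided membership and is given as a description. Of the 3412 shNIT2 regions over 50 kb from a coding gene, 3122 or 91.5% had no overlap with a control region, against 88.3% in the whole shNIT2 list. A further 66 of them were left out because they were at least 2500 bp wide. The widest regions kept were 2487 bp (chr13:44305349-44307835, 67055 bp from SERP2), 2477 bp (near CADM2) and 2469 bp (near OLIG3), with folds of 5.73, 5.57 and 8.05. The narrowest regions left out measured 2503 bp near UACA, 2503 bp near RAP2B and 2510 bp near ZMIZ1, with folds of 6.94, 7.97 and 8.97. On the distance limit, the closest regions kept lay 50003 bp from AHR, 50004 bp from RBM19 and 50008 bp from ITPRID1. Those just outside it lay 49996 bp from RPE65, 49944 bp from SPTSSB and 49916 bp from RIOK1. Stricter settings shortened the list: 798 regions had a fold of at least 5, 1628 a −log10 q of at least 5, and 1734 lay over 100 kb from a coding gene.

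Library totals are unknown, but the lists differed in the fragments behind a call. The median summit pileup was 22 fragments in the shNIT2 list and 6 in the shNT list, and the lowest recovered background was 2.48 against 0.278 fragments. Absence from the control list is not absence of the mark. The part of library depth in these regions was not tested. Of its 39876 regions, the shNT list held 24874 over 50 kb from a coding gene, counted over the whole far space. The shNIT2 list held 3412 of its 28187 regions there, or 12.1%. Where far knockdown-only regions gathered, the number of control regions varied between genes. It was 1 in the far space of LY86, 1 in that of FOXA2 and 1 in that of JUN. It was 7 in that of SLC39A11, 10 in that of KLF5 and 17 in that of TBL1XR1. The median gap from a far knockdown-only region to the nearest control region was 37.9 kb (quartiles 10.1 and 95 kb), and 203 or 6.64% (5.79 to 7.58) had a control region within 1 kb. Among the other knockdown-only regions of the same width limit this share was 8.52% (8.15 to 8.90).

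The far regions were narrow, with widths close to those of knockdown-only regions elsewhere, and fewer of them were strong than between genes nearer by. Their median width was 537 bp (interval of the median 521 to 550, quartiles 376 and 842), and 1405 or 46.0% were narrower than 500 bp. Knockdown-only regions between genes but within 50 kb had a median width of 535 bp, those inside genes 518 bp and those within 1 kb of a gene end 546 bp. The median fold was 3.94 (3.87 to 3.98) in the far regions, 4.02 (3.98 to 4.04) nearer to genes, 3.85 (3.82 to 3.88) inside genes and 4.45 (4.39 to 4.52) at gene ends. A fold of at least 5 was reached by 798 far regions, 26.1% (24.6 to 27.7), against 29.0% (27.8 to 30.3) between genes within 50 kb, 24.0% (23.2 to 24.8) inside genes and 38.4% (37.2 to 39.6) at gene ends. A fold of at least 10 was reached by 77 far regions, 2.52% (1.99 to 3.14), against 3.56% (3.05 to 4.12), 2.32% (2.03 to 2.63) and 4.22% (3.74 to 4.74) in the same 3 classes. The median summit held 20 fragments, from 9 at the lowest to 312 at the highest, over a median background of 4.25.

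Far regions that the control list also held were stronger and wider. The 290 far shared regions had a median width of 1114.5 bp and a median fold of 6.77 (6.09 to 7.32). They have no width limit and were set apart by a call in the shNT library as well, so the comparison describes the sets and no more. Shared and unshared regions often stood together: 234 of the 290, or 80.7%, had a far knockdown-only region within 12500 bp, and 503 of the knockdown-only ones (16.5%) had a far region of the other kinds within that distance. Among the far knockdown-only regions, wider ones were stronger, with a median fold of 3.45 in the 1405 narrower than 500 bp, 4.31 in the 1119 from 500 bp, 5.24 in the 340 from 1000 bp and 6.61 in the 192 from 1500 bp.

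**Figure D1:**
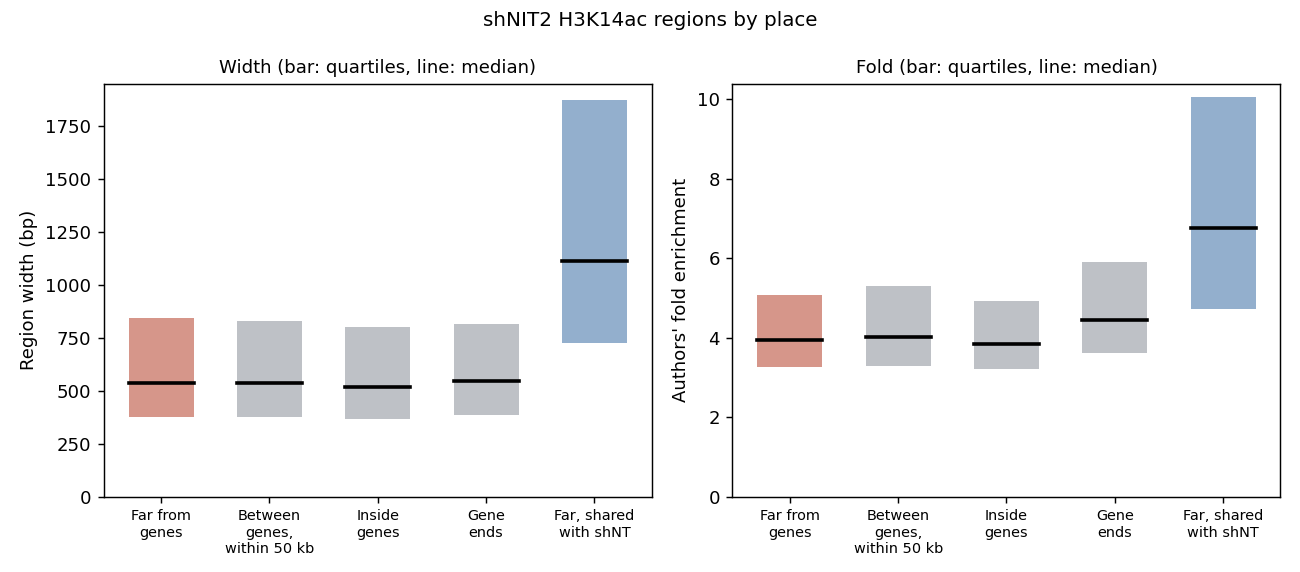
Width in bp (left) and authors' fold enrichment (right) of shNIT2 H3K14ac regions by place, with bars from the lower to the upper quartile and a line at the median. The far knockdown-only regions sit beside the other knockdown-only regions at medians of 537 bp and 3.94-fold, while the 290 far regions shared with shNT reach 1114.5 bp and 6.77-fold.

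The 10 strongest regions lay near genes of varied roles, and none of the 10 was among the 100 strongest of the whole list. The strongest lay on chromosome 1 (chr1:8096381-8097460, 20.9-fold, 116 fragments over a background of 4.59). It was inside the lncRNA gene ERRFI1-DT and 70612 bp from ERRFI1, a feedback inhibitor of the EGF receptor. By fold it ranked 143 in the whole shNIT2 list. The nearest control region, on 5 fragments, was 22242 bp away. The next stood 59196 bp from CHST15, a chondroitin sulfotransferase (chr10:124151708-124153880, 19.9-fold). The third, at the LINC02352 start shown above (chr15:31214847-31216178, 19.3-fold), was 54353 bp from TRPM1, a cation channel of melanocytes and retina, and 111322 bp from KLF13, a zinc finger factor, on the other side.

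The remaining strong regions included the surroundings of KLF5. A region 247429 bp from KLF5, a transcription factor of proliferating gut epithelium, reached 16.9-fold (chr13:73324188-73325746), and a control region on 11 fragments lay 1089 bp from it. The interval between KLF5 and KLF12 held 10 far knockdown-only regions assigned to KLF5 and 7 far shared ones. The region between IRF2BP2 and TOMM20, a mitochondrial import receptor, had 18.8-fold (chr1:234997657-234998398), with a control region 476 bp away. One between GAD2, which makes GABA from glutamate, and APBB1IP had 18.5-fold, and one between TMEM17 and EHBP1 had 18.4-fold, with control regions 1024 and 790 bp away. On chromosome 8, regions 51536 bp from the hydroxylase gene ASPH and 117568 bp from ZNF706 had 18.2-fold and 17.7-fold. The tenth lay 154968 bp from GRIN2B, a neuronal glutamate receptor subunit, and 162428 bp from the epithelial membrane protein gene EMP1, at 16.8-fold (chr12:13381355-13383383). Those near TOMM20, GAD2, TMEM17 and KLF5 had the closest control regions of the 10.

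The space open to such regions, all bases over 50 kb from a coding gene up to the last annotated gene of each chromosome, came to 1167 Mb. Without the single longest interval lacking any gene on every chromosome, which together held 1 region, it was 1003 Mb with 3.05 regions per Mb. Density differed between chromosomes. It was highest on chromosome 20 (5.96 per Mb, 116 regions), 12 (4.91), 7 (4.85) and 6 (4.34), and lowest on chromosome 21 (1.08, 23 regions), 19 (1.16, 5 regions) and 22 (1.18, 14 regions). Chromosome 2 had the most regions, 340, at 3.70 per Mb. Chromosomes X and 4, with large far spaces, had 2.23 and 1.81 per Mb. Assembly gaps and repeats outside the longest gene-free intervals were not left out of the far space. Chromosome copy number in these cells was not measured here. The part of either in these densities, or in those by distance below, was not tested.

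Even beyond the 50 kb limit, regions thinned out with distance from coding genes. The median distance was 113 kb (quartiles 72.9 and 200 kb). Density was 6.17 per Mb at 50 to 100 kb (1322 regions), 4.12 at 100 to 200 kb (970), 1.85 at 200 to 500 kb (574) and 0.780 beyond 500 kb (190). Strength did not follow the density, with median folds of 3.95, 3.93, 3.87 and 3.94 over the same steps. Of 2470 regions whose nearest gene had a known strand, 1297 or 52.5% (50.5 to 54.5) faced the gene's start and the others its end, where 49.99% of the far bases face a start. Regions on the same side of a gene share their facing, so this interval is too narrow and no bias can be read from it. The farthest region of all lay 1782207 bp from EPHA3, close to the centromere of chromosome 3 (3.74-fold on 12 fragments), with a control region 1992 bp away.

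**Figure D2:**
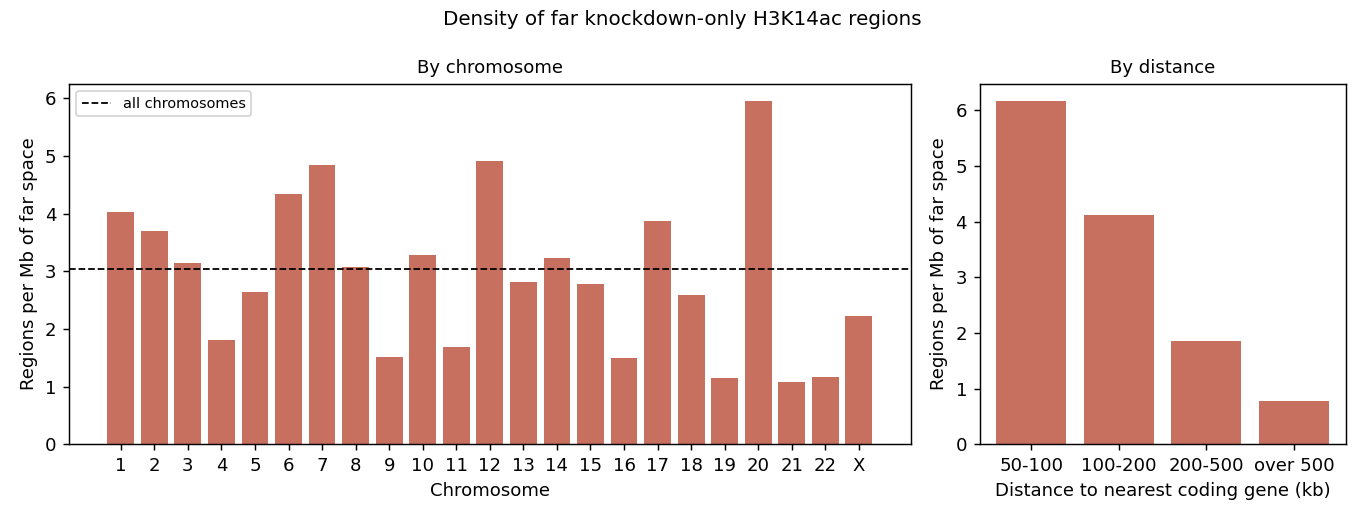
Far knockdown-only regions per Mb of far space outside the longest gene-free stretches, by chromosome (left, dashed line at 3.05 for all chromosomes) and by distance to the nearest coding gene in kb (right). Chromosome 20 stands highest at 5.96 and chromosome 21 lowest at 1.08, and the density falls from 6.17 at 50 to 100 kb to 0.780 beyond 500 kb.

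Most of the regions were clustered. Counting a region as clustered when another had its midpoint within 12500 bp, 2176 of 3056 or 71.2% (69.6 to 72.8) were clustered, in 765 clusters, and 880 stood alone. The share was not taken for knockdown-only regions nearer to or inside genes, so clustering cannot be called particular to the far ones. Most clusters were small, with 463 pairs and 154 triples, while 88 clusters of at least 5 regions held 548 regions or 17.9%. Neighbouring regions on a chromosome were a median of 18.7 kb apart (quartiles 1.60 and 445 kb), counting any coding genes that lay between them. The far space outside the gene-free stretches came to a mean of 328 kb per region. The first value is a median over whole chromosomes and the second a mean over far space, so they are not directly comparable. Of 3033 neighbour intervals, 1007 or 33.2% were at most 3 kb and 1051 or 34.7% were over 100 kb. Within clusters the median gap from edge to edge was 656 bp, and 483 of all neighbour intervals (15.9%) were under 500 bp from edge to edge, where 1 acetylated stretch and several cannot be told apart. With 3 kb in place of 12500 bp, 58.1% were clustered.

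Lone regions were weaker and narrower. Their median fold was 3.71 (3.64 to 3.74) and their median width 442 bp (423 to 459). Regions in clusters of 5 or more had medians of 4.06 (3.93 to 4.24) and 666 bp (614 to 704). The local background moved with cluster size as well, from 3.66 fragments (3.40 to 3.83) for lone regions to 5.10 (4.76 to 5.28) in clusters of 5 or more, and its part in the clustering was not tested.

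The largest cluster lay on chromosome 6 between ADGRF1, an adhesion G protein-coupled receptor, and TNFRSF21, a death receptor. Its 22 regions spread over 76154 bp (chr6:47093091-47169244), covered 25.3% of it and had folds of 2.03 to 9.35 with a median of 3.06. Their median background of 11.7 fragments was well above the 4.25 of the whole list, and 3 control regions lay in the same interval. The next cluster, also on chromosome 6 (chr6:6790183-6824207), had 12 regions with their middle 152213 bp from LY86, a partner of an immune receptor, and 300548 bp from RREB1, a Ras-responsive zinc finger factor. Its folds ran from 2.26 to 7.90, its median background was 5.19, and it held 0 control regions.

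The following clusters had 10 regions each. On chromosome 7 (chr7:130887542-130919376) all 10 had their midpoint inside LINC-PINT, a p53-induced lncRNA, 169252 bp from KLF14 and 206635 bp from MKLN1 when measured from the cluster's middle. The folds were among the higher of these clusters, with a median of 5.42 and a maximum of 8.12. On chromosome 17 (chr17:72389562-72430712), 8 of 10 were inside LINC00673, in the interval between SOX9, a stem cell factor of the gut crypt, and SLC39A11, a zinc transporter. The middle of this cluster was 283721 bp from SOX9 and 235812 bp from SLC39A11, and the folds ran from 2.53 to 9.64. On chromosome 3 (chr3:168858613-168878860), 10 regions filled 40.2% of 20248 bp, with their middle 214771 bp from MECOM, a zinc finger oncogene. No noncoding gene overlapped that cluster, and its folds ran from 2.70 to 6.24. A cluster inside JUN-DT (chr1:58848234-58897451) tied with them at 10 regions but covered fewer bases, 5871 bp. The LY86 and MECOM clusters held no other shNIT2 region and no control region.

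**Figure D3:**
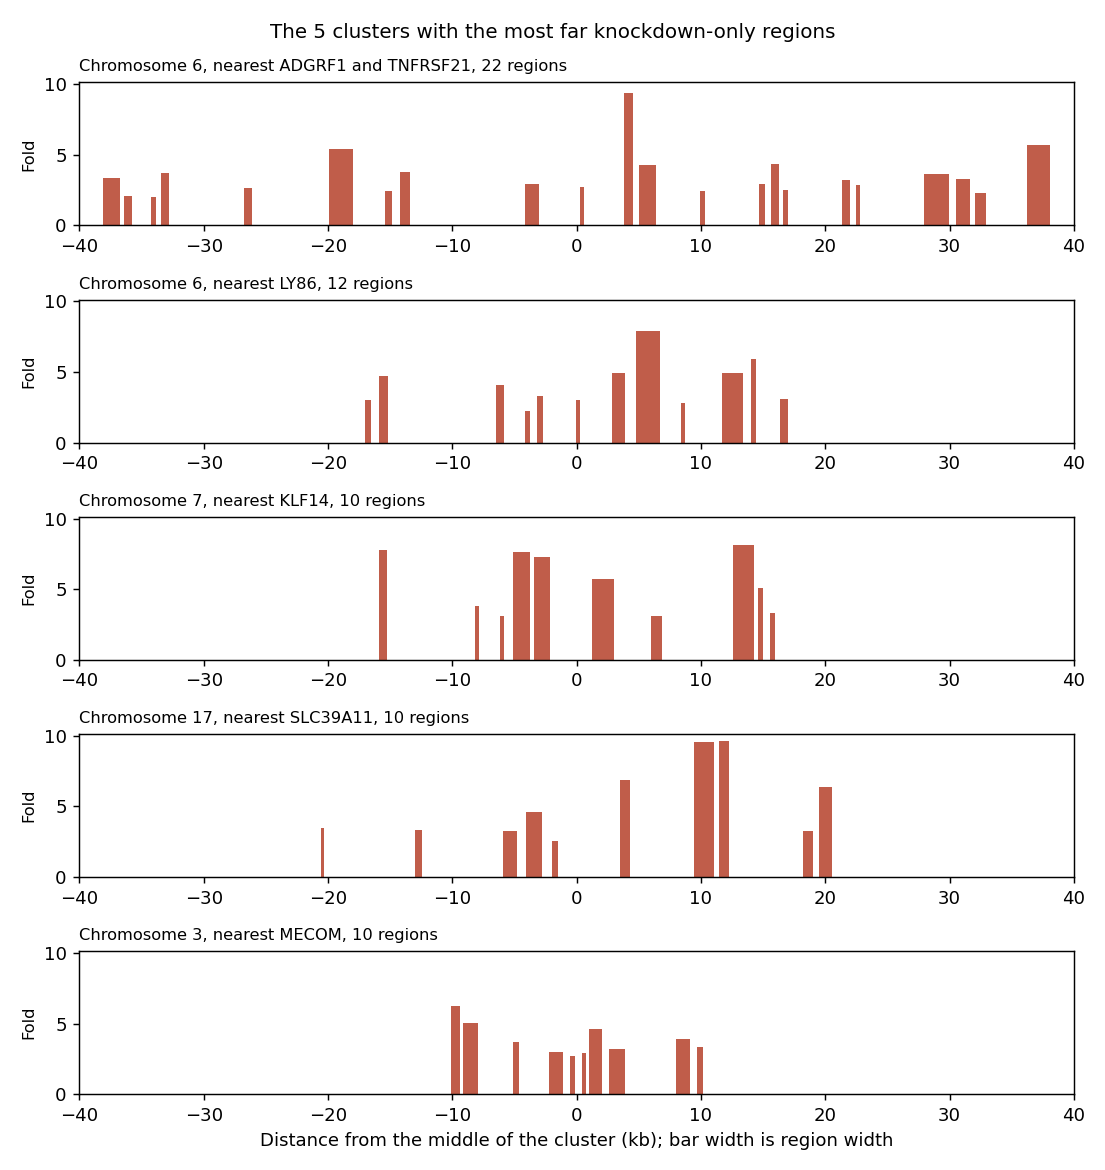
The 5 clusters with the most far knockdown-only regions, each bar a region at its distance in kb from the middle of its cluster, as wide as the region and as high as its authors' fold. The ADGRF1 and TNFRSF21 cluster spreads 22 regions over 76154 bp, while the MECOM cluster packs 10 into 20248 bp, with folds of 2.03 to 9.35 against 2.70 to 6.24.

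Noncoding genes lay in or near many of the regions. The midpoint of 1089 regions, 35.6% (33.9 to 37.4), was inside a noncoding gene, where 25.4% of the far bases outside the gene-free stretches are. A further 285 or 9.33% (8.32 to 10.4) were within 5 kb of one, against 4.71% of those bases. Together 1374 or 45.0% (43.2 to 46.7) were inside or within 5 kb, against 30.1% of the bases. The shares were also taken by distance to coding genes. They were 42.0% against 30.7% of bases at 50 to 100 kb, 46.4% against 32.1% at 100 to 200 kb, 50% against 32.5% at 200 to 500 kb and 43.2% (36.0 to 50.5) against 24.7% beyond that. Strength did not differ with it, at a median fold of 3.93 (3.82 to 4.02) inside noncoding genes and 3.89 (3.75 to 3.98) over 50 kb from any.

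The noncoding genes overlapped were nearly all lncRNAs. The regions overlapped 584 noncoding genes, 576 of them lncRNAs, of which 324 (56.3%) carry only a LOC number and 168 (29.2%) a LINC number. Another 22 were named as antisense, 14 as divergent transcripts of a coding gene, and 7 as microRNA hosts. LINC00673 held the most regions, 17, with a highest fold of 10.3. LINC-PINT had 15 (8.12-fold at most), LOC105370507 on chromosome 14 had 12 (7.93-fold) and LOC101928004 near LY86 had 12 (7.86-fold). JUN-DT, which runs away from JUN, had 10, and none exceeded 4.89-fold. These 5 genes are long, at 106 to 232 kb, and the counts are not per length.

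By strength, ERRFI1-DT and LINC02352 led and MIRLET7A1HG followed at 15.2-fold (chr9:94166246-94166661). That region covered the host gene's start at 94166258 and lay 9296 bp from the let-7a-1 gene, 9686 bp from let-7f-1 and 12173 bp from let-7d. LOC105376373, near AKR1E2, had 14.6-fold, LOC105371024, near ASB7, had 14.1-fold, and LOC105376205, near KLF4, had 14.1-fold. LOC101927609 and LOC107986772 overlap each other near AHR and share a region of 13.8-fold, so the lists cannot say which of them it belongs to. PVT1, an oncogenic lncRNA beside MYC, had 2 regions. The stronger, at its very start (chr8:127794527-127796818), reached 13.0-fold on 63 fragments and also covered MIR1204. LOC124900191 near LHFPL2 followed at 11.95-fold. DLEU1 and DLEU2, divergent lncRNAs of 13q14, shared a region of 11.5-fold (chr13:50124771-50126778), and the DLEU2 start in it is the window shown above. DLEU2 hosts MIR15A and MIR16-1, 75570 and 75710 bp away. LINC01559 had 11.4-fold and was 155959 bp from EMP1 through its strongest region. LOC101927413, near TRHR, also had 11.4-fold.

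Besides MIR1204, 11 microRNA genes lay within 5 kb of a region's midpoint, on generally weak regions. MIR4458, whose product has the let-7 seed shown above, had the strongest, 7.37-fold on 39 fragments (chr5:8457752-8458527, 2785 bp away). MIR587 had one of 6.42-fold at 4223 bp. MIR3148 was the only other microRNA gene touched, with 3 regions of 3.74, 5.01 and 4.02-fold within 1667 bp. The miR-30 cluster on chromosome 6 had a region 708 bp from MIR30C2 (3.74-fold) and regions 1708 and 365 bp from MIR30A (3.74 and 3.34-fold), each on 12 fragments. MIR6089 had 2 regions (3.24 and 3.47-fold), MIR4276 one of 3.74-fold at 435 bp, and MIR135A2 and MIR3672 one each of 3.74 and 3.69-fold at over 4 kb. Every 3.74-fold region named here had 12 fragments over a background of 2.48, the lowest of the shNIT2 list. MIR6085 had a region of 2.71-fold, and MIR5195 one of 4.45-fold in the IGH locus. A few regions count as far only because antigen receptor genes are not annotated as protein-coding: 7 lay in the IGH, IGL, TRA or TRB loci, up to 11.1-fold in IGH.

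Few regions marked the start of a noncoding gene. Of 4024 noncoding promoter windows in the far space, 70 or 1.74% overlapped a far knockdown-only region. Any shNIT2 region overlapped 94 of them (2.34%), against 11.95% of all promoter windows and 14.04% of coding ones. The far knockdown-only regions covered 0.178% of the far space, which is a share of bases and not of windows, so it is not directly comparable. The 70 windows belonged to 66 genes and lay in 65 regions, 2.13% of all. Those 65 had a median fold of 4.83 (4.49 to 5.55) and a median width of 785 bp (689 to 1042), against 3.93 (3.85 to 3.97) and 531 bp (513 to 545) in the 2991 regions without such a window. A wider region is more likely to overlap a window, and wider regions had higher folds, so the selection itself favours both differences and they are given as a description.

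The marked noncoding promoters differed in sequence from unmarked ones. Their median GC content was 50% (quartiles 42.8 and 60.3), against 43.7% (38 and 50.3) in 3930 noncoding windows of the far space that no shNIT2 region touched. The median number of CG dinucleotides was 4.5 (quartiles 2 and 15.5), against 3 (1 and 5). A GC box was present in 32.9% (22.1 to 45.1) of the marked windows, against 9.44% (8.54 to 10.4) of the unmarked and 44.9% of all promoter windows. A TATA box was present in 8.57% (3.21 to 17.7), against 22.8% (21.5 to 24.1), and in 11.6% of all. The sets were not matched for GC content. Coding promoters in a shNIT2 region also held a GC box more often than all coding promoters, in 72.8% against 56.3%. They held a TATA box less often, in 5.47% against 9.49%. For AP-1 (TGANTCA) the marked share was 20% (11.4 to 31.3), against 12.7% (11.7 to 13.8), for the NF-kB consensus 21.4% (12.52 to 32.9), against 13.0%, and for the GATA-factor motif (AGATAA) 22.9% against 19.9%. The CCAAT box, searched by those letters, was in 32.9% against 39.2%. The intervals of these last 4 motifs overlap between marked and unmarked windows. A match describes letters and is not a binding site. All promoter windows held AP-1 in 7.69%, NF-kB in 25.6%, the GATA-factor motif in 10.4% and the CCAAT box in 34.6% of cases. Both strands were searched.

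**Figure D4:**
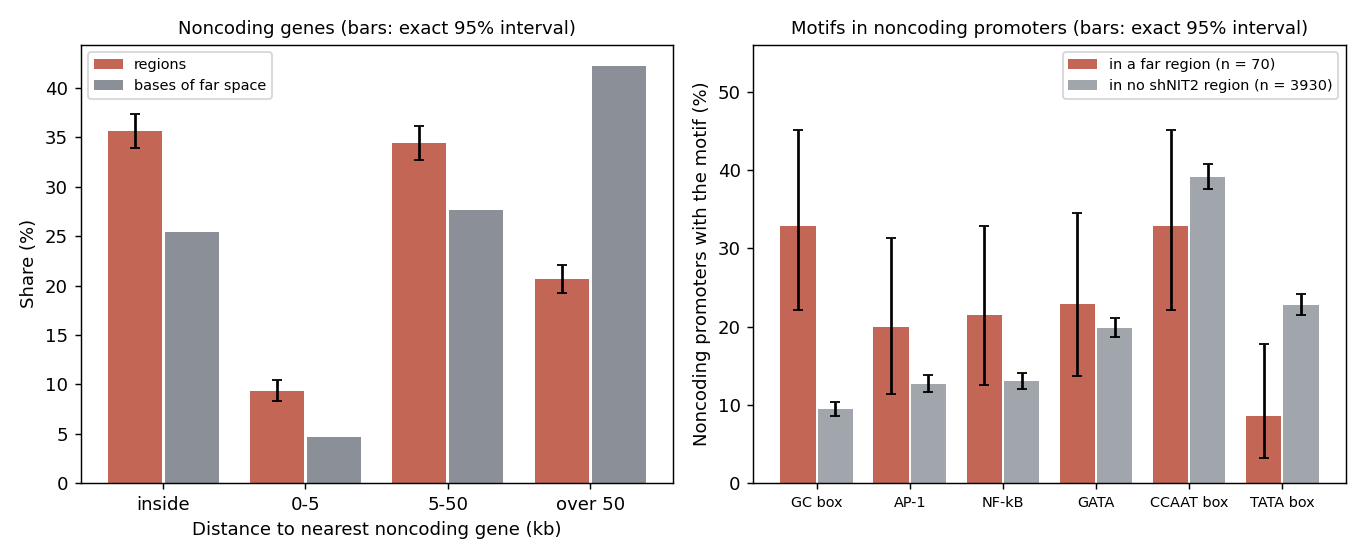
Left, the share (%) of far knockdown-only regions and of far bases inside, within 5 kb, 5 to 50 kb and over 50 kb from a noncoding gene, and right, the share (%) of noncoding promoter windows with each motif, in a far region (n = 70) or in no shNIT2 region (n = 3930). Region and promoter bars carry exact 95% intervals, and the GC box (32.9% against 9.44%) and TATA box (8.57% against 22.8%) intervals do not overlap.

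The nearest coding genes were few relative to the regions. The far space is bordered by 4731 coding genes, and 1033 of them, 21.8%, were nearest to at least 1 region. Of these, 387 had a single region and 199 had at least 5, together 1491 regions or 48.8% of all. LY86 led with 24 regions in 0.260 Mb of far space, all on the side towards RREB1 where the strongest (7.90-fold) lay, with 1 control region in the same far space. AHR, the receptor for dioxins and other aromatic ligands, followed with 22 in 0.331 Mb (highest 13.8-fold, chr7:17206802-17208322) and 2 far shared regions. Its 22 regions had a median fold of 3.46 and a median background of 8.71, against 4.25 in all far regions. The same far space held 4 control regions. SLC39A11 had 21, on the side facing SOX9 (highest 10.3-fold). AKR1E2, an aldo-keto reductase, had 17 (14.6-fold) and SPRY1, an inhibitor of growth factor receptor signalling, also 17 (8.91-fold).

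Further down the order stood TBL1XR1, a subunit of nuclear corepressor complexes, with 16 regions (13.5-fold), and BCAS1 with 15 (6.74-fold), its strongest region 137941 bp from BCAS1 and 207898 bp from the oncogene ZNF217. KLF4, a factor of differentiated gut epithelium, had 15 regions from 56652 to 665131 bp away, of which the region at 98581 bp reached 14.1-fold and the others 2.74 to 7.32-fold. FOXA2, an endoderm pioneer factor, had 14 regions. The strongest, 168338 bp away (chr20:22412137-22413183), had 10.8-fold, and the others 2.41 to 7.17-fold. GATA6, which drives gastric and intestinal lineages, had 14. The strongest (chr18:22044644-22046445, 124044 bp away) had 10.7-fold beside one of 7.21-fold, and 3 regions lay on the gene's other side at 79573, 80884 and 83822 bp.

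**Figure D5:**
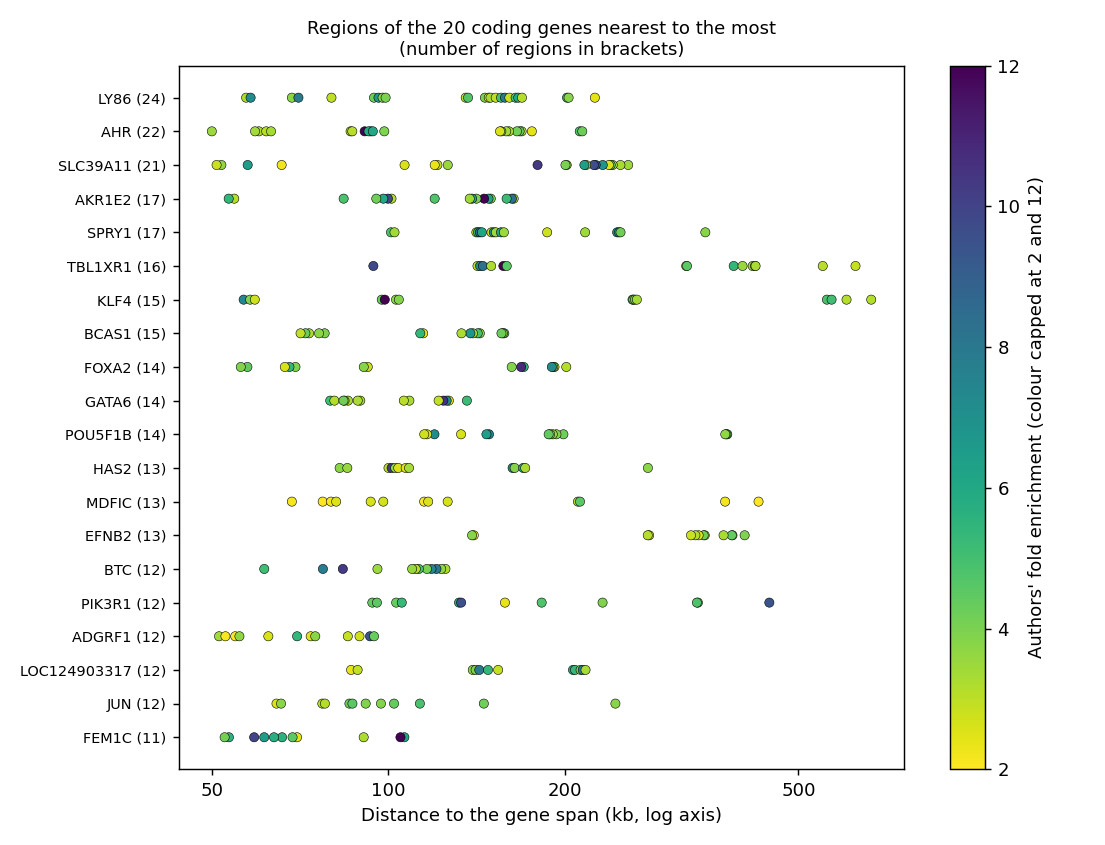
Every far knockdown-only region of the 20 coding genes nearest to the most regions, by distance to the gene span in kb (log axis) and coloured by authors' fold. Regions gather in groups at particular distances, such as those of KLF4 near 98581 bp with its strongest region of 14.1-fold.

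Gene lists describe which kinds of genes the regions lay nearest to. The lists and regions were chosen with earlier results of these data known, genes with more far space around them can collect more regions, and the nearest gene need not be the one regulated. The median far space was 0.0786 Mb over all 4731 bordering genes. Of 26 gut lineage transcription factors, 18 border the far space and 10 were nearest to a region (55.6%, against 21.8% of all bordering genes), with 72 regions in 5.54 Mb or 13.0 per Mb and a median far space of 0.129 Mb. Besides KLF4, FOXA2 and GATA6 these included KLF5 (10 regions, 16.9-fold at most), SOX9 (9, 5.73-fold), SOX2 (6, 4.62-fold) and, with 1 each, HNF4G (6.32-fold), PDX1 and SOX21. Of 21 bordering growth and differentiation ligands, 9 were nearest to a region (42.9%), with 37 regions. BMP4 had 10 (8.03-fold), the EGF receptor ligand AREG 7 (6.85-fold), BMP2 6 (6.71-fold), the Wnt inhibitor DKK1 3 (5.27-fold) and TGFB2 4 (4.56-fold).

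Immediate early and cancer driver genes had fewer bordering members. Of 18 immediate early genes 9 border the far space, and MYC, KLF6, DUSP6 and JUN were nearest to a region. That is 44.4%, against 21.8% of all bordering genes, on a small count. MYC alone had 1.04 of the list's 2.42 Mb of far space. MYC had 10 regions (13.0-fold at the PVT1 start, 52722 bp away), and the reach to its farthest region was 909990 bp. KLF6 had 2 (11.8-fold), the ERK phosphatase DUSP6 5 (6.48-fold) and JUN 12, all between 2.56 and 4.89-fold. Of 10 bordering gastric cancer drivers, 4 (40%) were nearest to a region, MYC, FGFR2 (7 regions, 4.76-fold), VEGFA (4, 4.13-fold) and CCND1 (1, 5.31-fold). The MYC regions are the same 10 in both lists. Of 8 bordering epithelial genes only EPCAM was, with 4 regions between 55555 and 59918 bp away (5.25-fold at most).

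Genes of NIT2, glutamine and fluorouracil handling that border the far space numbered 7, and 4 were nearest to a region, with 16 regions in 0.450 Mb. That is 57.1%, against 21.8% of all bordering genes, again on a small count. The glutamine transporter SLC38A1 had 3, the strongest of 11.9-fold at 80862 bp (chr12:46101750-46102651). Its neighbour SLC38A2 had 8 (4.57-fold at most), and GLUL, glutamine synthetase, had 2 (4.88-fold). Of 28 respiratory and mitochondrial genes 4 border the far space. Only UQCRFS1 (25%) was nearest to a region, with 4 of at most 4.54-fold at 206735 bp or more. Markers of other cell types gave shares that rest on small counts. Mesenchymal genes had 2 of 11 (18.2%, 0.692 regions per Mb), TWIST2 (3.56-fold) and COL1A2 (3.19-fold), neuron genes 2 of 8 (25%, 2.96 per Mb), NEUROD1 (6.12-fold) and MAP2 (3.69-fold), immune genes PTPRC, the only bordering one (4.15-fold, 5.13 per Mb), and muscle and liver genes ALB, 1 of 2 (3.74-fold, 16.2 per Mb from 1 region). Apart from the mesenchymal one, these shares are not below the 21.8% of all bordering genes. The epithelial list, with 1 of 8, was below it and had the lowest share of all the lists, also on a small count. Its 4 regions nevertheless came to 14.1 per Mb of far space.

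Local background set some regions apart. Where the background was at least 4 times the list's median, which is 17.0 fragments, lay 52 far regions or 1.70%, against 0.589% of the whole shNIT2 list. All 42 far regions in 1 interval of chromosome 7 (chr7:115087789-122238834) were among them, and that interval also holds the receptor gene MET. Their median background was 31.6 fragments and the highest 62.1, beside TES. Their folds were low, with a median of 2.45 and a highest of 6.69, near TFEC, although the highest summit pileup of all far regions, 312 fragments near TES, was among them. Nearest to them stood MDFIC with 13 regions, TFEC with 9, FAM3C with 7, and CAV2, PTPRZ1 and TES with 4 each. Outside this interval, 3 regions near BBOX1 on chromosome 11 had a background of up to 28.7. Copy number was not measured here, and its part in these backgrounds was not tested.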

How the data were processed

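H3K14ac ChIP-seq of MKN45 cells gave 2 deposited peak lists, 1 per H3K14ac library, and samples were grouped by the hairpin and antibody in the labels. Per the submitters' processing notes, MACS2 2.1.1, Bowtie2 2.2.6, the build hg38, ChIPseeker, Trimmomatic 0.35, cutadapt 1.9.1 and FastQC were used. No source used here states whether the input served as the peak caller's control. Per peak, the deposited lists give the authors' score, fold (a ratio), −log10 p-value, −log10 q-value (at least 1.30 in both lists) and summit place.

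For each peak, the Poisson upper tail was inverted with the deposited fold and −log10 p-value to recover pileup and background. All 3056 members were solved to a whole-number pileup within 0.1% of the −log10 p, and 11 shNIT2 and 15 shNT regions of the full lists were not. Library totals are unknown. Genes (20037 protein-coding), promoters and microRNAs came from RefSeq GRCh38.p14 tables, whose chromosomes are those of hg38. Noncoding genes exclude pseudogenes. Coordinates are 1-based. Scripts used Python 3.11.15, pandas 2.3.3 and scipy 1.17.1.

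The named regions were the 10 strongest by fold, the 5 clusters with the most members and those at the limits. Named genes were those nearest to them, the 10 nearest to the most members, up to 5 per gene list and the rest of a count, the strongest noncoding genes and every microRNA gene within 5 kb. Members and lists were chosen with earlier results of these data known, and some list genes are not reported here. Alternatives were stricter q and fold, other overlap, distance and width limits, and other cluster and noncoding distances.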

Additional observations from a re-analysis of the deposited data

How the results depend on the processing

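The alternatives gave 53 values, of which 21 moved, meaning a count by over 1.5 times or a share or median to outside the 95% interval of the reported one. The other 32 did not. The number of regions (3056) moved to 1628 at −log10 q of at least 5, 798 at a fold of at least 5 and 1734 beyond 100 kb. The clustered share (71.2%) moved to 63.0%, 47.7% and 69.4% under these 3 settings, to 73.4% with a 50% reciprocal overlap as shared, and to 81.5% and 58.1% with midpoints within 50 kb and 3 kb. Fewer regions leave fewer neighbours, by construction. The share with a noncoding gene within 5 kb (45.0%) moved to 47.2% beyond 100 kb, 43.1% beyond 25 kb, 38.7% and 62.8% with 1 kb and 20 kb, and 50.3% with pseudogenes. The median fold (3.94) moved to 4.97 and 6.34 under the stricter q and fold, which select on it, and to 3.998 with reciprocal overlap. The median background (4.25) moved to 4.46, 3.83 and 4.08 under the stricter q, the stricter fold and 100 kb. The share nearest to a listed gene (6.09%) moved to 4.89% at a fold of at least 5. Leaving out the chromosome 7 interval around MET, chosen after seeing the data, moved none of the 6. No paired analysis was possible because each condition has 1 H3K14ac library. Library totals are unknown and the recovered backgrounds differed, so a region absent from the shNT list may be below detection there.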
